A study of Mus musculus with 46 samples.

Results

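Macroautophagy encloses cytoplasm and damaged organelles in a double membrane that fuses with the lysosome, and the vacuolar proton pump acidifies the lysosome in which that cargo is broken down. The genes described here are those whose symbol begins with Atg followed by a digit, with Atp6v0 or Atp6v1, with Map1lc3 or with Gabarap, together with Ulk1, Ulk2, Becn1, Pik3c3, Wipi1, Wipi2, Tfeb and Tfe3, leaving out 3 symbols that end in -ps. These names picked 54 of the 55487 genes counted in every library. Of the 54, 31 belong to the autophagy machinery or its transcription factors and 22 are subunits of the proton pump. The remaining member, Atp6v1fnb, meets the name pattern as a neighbour of Atp6v1f and is not a pump subunit.

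RNA sequencing was done on 46 mouse libraries in 11 groups. Islets labelled Tfam KO (4 female and 2 male libraries) were set against islets labelled Tfam control (5 female and 3 male). Islets labelled Clec KO (in these labels, Clec16a) were set against Clec control islets on each of the diets that the labels call RFD (4 KO and 4 control libraries) and HFD (5 KO and 6 control). The third set was liver, with 6 control, 4 Mfn DKO and 3 Tfam KO libraries, whose sample descriptions carry the word AAV. RNA came from islets after a night in culture and from flash-frozen liver, so tissue and handling cannot be told apart. The replicates are labelled as biological. The Cre driver or vector promoter, the cells in which each gene was lost, the strain and the age are not given in the sources used here, nor are the sexes of the individual Clec16a islet and liver libraries. Tfam packages mitochondrial DNA and takes part in its transcription. Mfn1 and Mfn2 fuse the outer membranes of mitochondria, and Clec16a takes part in mitophagy, the autophagy of mitochondria.

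An autophagosome is started by a kinase complex that includes Ulk1 or Ulk2, Atg13 and Atg101. A lipid kinase complex with Pik3c3, Becn1 and Atg14 then makes phosphatidylinositol 3-phosphate, which Wipi1 and Wipi2 bind, while Atg2 and Atg9 proteins supply lipid and membrane. A conjugation machinery (Atg3, Atg4, Atg5, Atg7, Atg10, Atg12, Atg16l1) attaches the ATG8 proteins Map1lc3a, Map1lc3b, Gabarap, Gabarapl1 and Gabarapl2 to the growing membrane. The proton pump is a rotary machine: the V1 sector in the cytosol splits ATP and the V0 sector in the membrane carries protons. Tfeb and Tfe3 are transcription factors that enter the nucleus when the lysosome or nutrient supply is disturbed and bind a DNA element of the E-box type in promoters of lysosomal genes. In beta cells, where insulin granules are acidified by the same pump, and in hepatocytes, autophagy is a main route of organelle turnover.

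The E-box core CACGTG and the longer palindrome TCACGTGA, which contains it, were looked for on both strands in RefSeq promoters (GRCm38.p6, from 250 bases before to 50 bases after the start). Promoters were held for 43 of the 54 members. CACGTG was present for 8 of these 43 genes (18.6%) and for 8.09% of the 27025 genes with a promoter. The members were Atg3, Atg5, Atg7, Atg14, Atp6v0b, Atp6v0d1, Atp6v0e and Atp6v1a. TCACGTGA was present for 4 of the 43 (9.30%) and for 1.12% of all genes. The windows around the 4 palindromes are shown because Tfeb and Tfe3 recognise sequences of this kind and because they fall in genes that went different ways below. Capitals mark TCACGTGA, each window is 30 bases long, and positions count from the RefSeq start site. The windows of Atp6v0e and Atp6v1a lie inside the gene intervals of GENCODE, which begin further upstream.
Atg3 (chr16:45158746-45158775, plus strand, motif at -72 to -65): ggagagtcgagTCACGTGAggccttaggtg
Atp6v0d1 (chr8:105566050-105566079, minus strand, motif at -4 to 4): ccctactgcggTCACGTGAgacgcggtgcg
Atp6v0e (chr17:26676387-26676416, plus strand, motif at 3 to 10): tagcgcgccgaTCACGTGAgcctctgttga
Atp6v1a (chr16:44139373-44139402, minus strand, motif at -132 to -125): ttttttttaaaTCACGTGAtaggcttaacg

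Wipi1 (ENSMUSG00000041895, chr11:109573331-109611967, minus strand) was the member called in the most comparisons, so the 250 bases before its RefSeq start are shown as well (chr11:109611390-109611639, minus strand, GC content 67.2%). The gene interval comes from GENCODE and begins further upstream, so the bases shown lie inside it. These 250 bases hold no CACGTG, and the bases before the GENCODE start were not searched.
Wipi1: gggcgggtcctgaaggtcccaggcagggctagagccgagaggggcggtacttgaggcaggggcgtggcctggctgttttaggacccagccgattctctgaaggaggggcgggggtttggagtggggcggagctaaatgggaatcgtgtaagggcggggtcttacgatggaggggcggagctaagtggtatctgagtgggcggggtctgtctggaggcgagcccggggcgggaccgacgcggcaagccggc

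Library totals were 55223041 to 83342809 counts in the Tfam islets, 16235173 to 55810879 in the Clec16a islets and 41961114 to 56894510 in the livers, and the 54 members took between 0.235% and 0.450% of a library. Levels are CPM, counts scaled to library size, with sizes adjusted by the trimmed mean of M-values (TMM), a scaling that assumes most genes do not change. A member is called when edgeR's quasi-likelihood test gives a Benjamini-Hochberg adjusted p of at most 0.05 over all genes tested. The targeted transcripts were lower in the libraries labelled for them: Tfam was 17.2 CPM in KO and 39.8 in control islets and 14.7 against 58.9 in livers, Mfn1 20.2 against 80.8 and Mfn2 38.1 against 156.7. The Clec16a transcript did not fall with its label, at 26.5 CPM in KO against 24.3 in control islets on RFD (adjusted p = 0.612) and 28.1 against 26.6 on HFD (adjusted p = 0.740), so directions below are those of the libraries labelled Clec16a KO. The Y-linked Ddx3y was 0 CPM in every Clec16a islet library. In livers Ddx3y ran from 0 to 94.5 CPM in control and from 0.0386 to 93.9 in Mfn DKO. In Tfam KO livers it ran from 0.312 to 104.7 with a median of 0.537. By this gene each liver group mixed the sexes, and the reported liver fits had no sex term. Scaling by library totals instead of TMM, chosen after the data were seen, moved the median log2 fold change of all genes by 0.43 in Tfam KO livers, 0.21 in Tfam KO islets, 0.19 in Mfn DKO livers and 0.12 in the HFD comparison. Calls that depend on this choice are named below.

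In control tissue the members spanned a wide range of levels. TPM, the deposited measure of transcripts that divides by gene length, allows genes to be set side by side. Gabarap, an ATG8 protein, was the most abundant member in control islets, at 316 ± 15.5 TPM (SD, n = 8) in the Tfam experiment and 394 ± 30.8 (n = 10) in the Clec16a experiment. In control livers Gabarapl1 led with 402 ± 80.9 TPM (n = 6), ahead of Gabarap at 292 ± 8.59. Of the pump, Atp6v1g1, Atp6v1f and Atp6v0d1 led in Tfam control islets at 239, 192 and 165 TPM. Gabarapl2 and Atp6v1g1 differed between the control islets of the 2 experiments, at 94.96 against 23.2 and 239 against 79.1 TPM, so their levels are not comparable across experiments. At the other end, Atp6v1fnb, Atp6v1b1 and Atp6v1e2 had at most 3 counts in every library of all 3 experiments, and Atp6v1g3 had at most 3 in every Clec16a islet and liver library. Atp6v1b1, Atp6v1e2 and Atp6v1g3 are forms of pump subunits known from kidney, testis and other specialised tissues.

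Most pump subunits had higher TPM in control islets than in control livers. Among the 17 pump subunits that reached 1 TPM, 12 were higher in every one of the 18 control islet libraries than in any of the 6 control livers. Atp6v0d2 went the other way, at 4.09 TPM in livers and 0 TPM in Tfam control islets, and Atp6v0a2, Atp6v1f, Atp6v1g1 and Atp6v1h overlapped. Among the 30 autophagy members at that level, 7 were higher in all islets, 7 were higher in all livers (Gabarapl1, Atg12, Atg3, Atg5, Atg7, Atg101 and Ulk2) and 16 overlapped. Atg3 and Atg7, the enzymes that charge ATG8 proteins for lipid attachment, were both among the liver-high genes. Atg3 averaged 40.5 TPM in Tfam control islets and 96.9 in control livers. Islets and livers were separate experiments, so these are descriptions with no test. The share of all genes that separate the tissues in this way was not counted. Whether the members differ from other genes in this is therefore not known. In whole tissue, fewer cells of a type and less RNA per cell cannot be told apart.

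**Figure D1:**
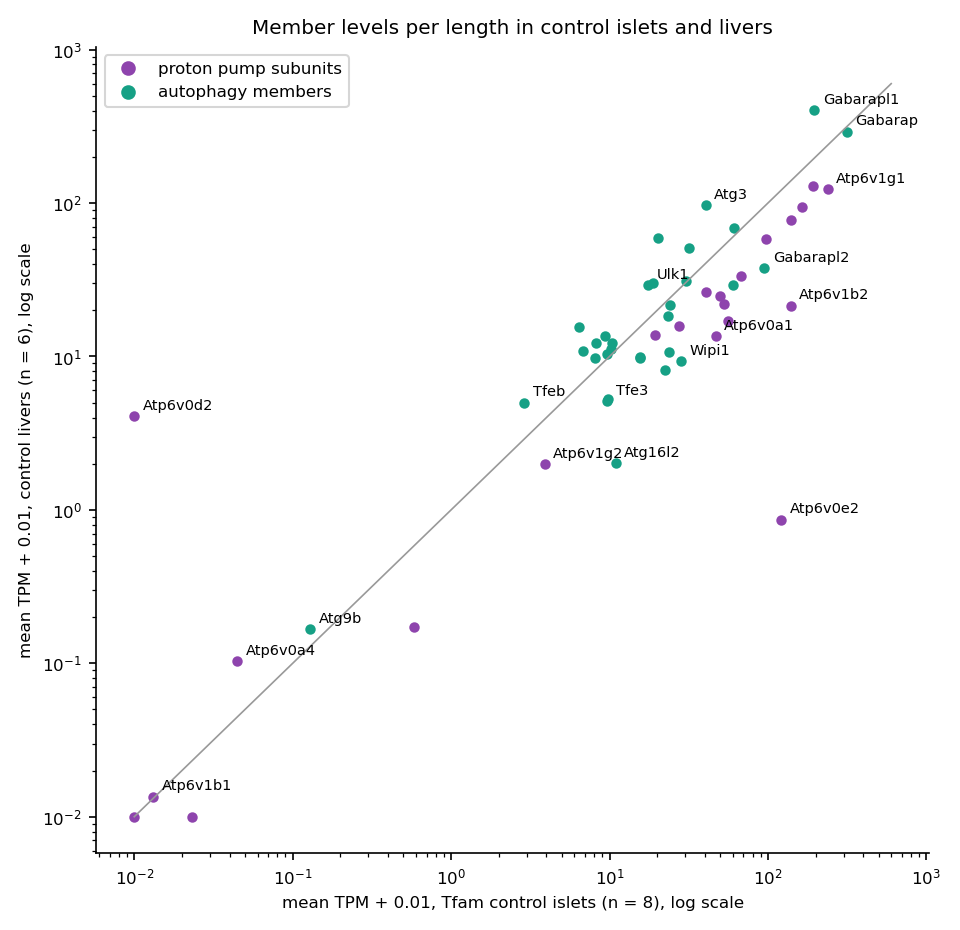
Mean TPM + 0.01 of each member in Tfam control islets (horizontal, 8 libraries) against control livers (vertical, 6 libraries), both on log axes, with the line of equal level. Most pump subunits (purple) lie below the line, Atp6v0e2 at 121 against 0.854 TPM lies farthest below it, and Gabarapl1 and Atg3 lie above it.

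The tissues also used different forms of the same subunit. Subunit e, a small membrane protein of V0, has the forms Atp6v0e and Atp6v0e2. Atp6v0e2 made up 74.8 ± 2.23% (SD, n = 8) of their summed TPM in Tfam control islets and 3.17 ± 0.83% (n = 6) in control livers. Atp6v0e was present in both tissues, at 40.9 TPM in Tfam control islets and 26.4 in control livers. Subunit a, which targets the pump to its membrane, is encoded by Atp6v0a1, Atp6v0a2, Tcirg1 and Atp6v0a4. Atp6v0a1 held 66.5% of that family in Tfam control islets and 24.8% in control livers, while Tcirg1 held 6.54% and 49.9%. Tcirg1 does not meet the name rule and is given only as the missing part of the subunit.

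The overview of all tested members showed 1 gene called in all 5 comparisons of a loss with control. That gene was Wipi1, higher in both Clec16a KO comparisons and lower in Tfam KO islets, Mfn DKO livers and Tfam KO livers. Ulk1 and Atg101 were called higher in Tfam KO islets and lower in Tfam KO livers. Atp6v1c1, the stalk subunit C of V1, was called lower in Clec16a KO islets on HFD and higher in Tfam KO livers. The lower call of Wipi1 in Tfam KO islets, unlike its other directions, did not keep its sign under library totals. Differences between these comparisons were not tested, since they come from separate experiments or share controls.

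**Figure D2:**
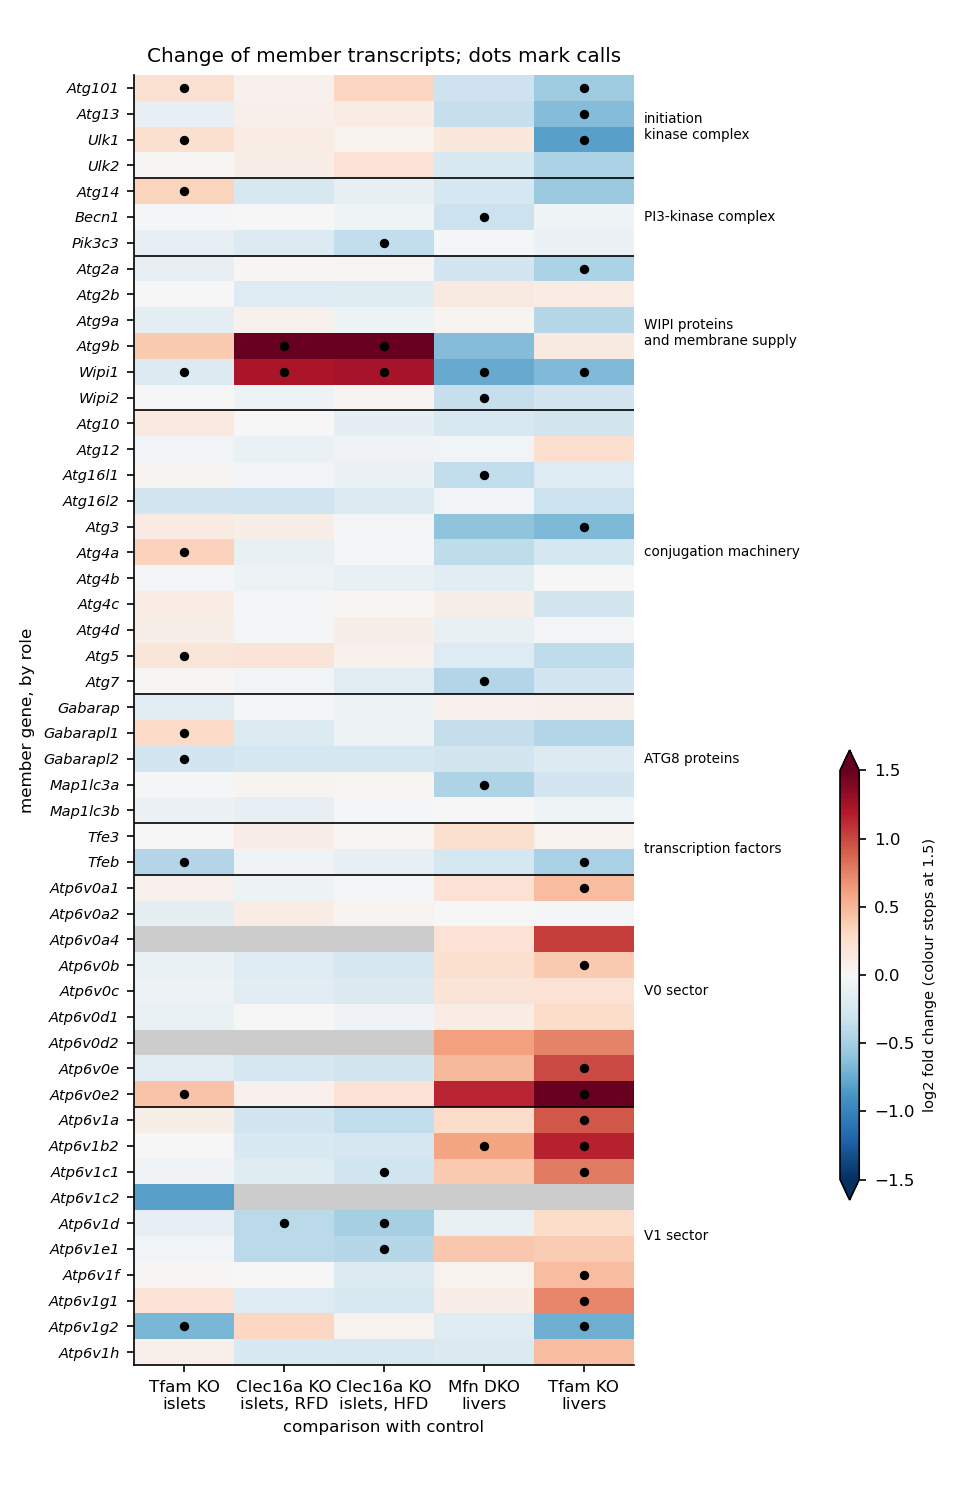
Log2 fold change (colour, stopping at 1.5) of each tested member against control in the 5 comparisons, grouped by role, with black dots for calls and grey for members not tested. In Tfam KO livers 9 pump subunits are called higher and 7 autophagy members lower on TMM-scaled libraries. On library totals 14 pump subunits are higher, and 7 autophagy members are higher and 1 lower. Of all 17024 genes 7250 are higher and 904 lower on library totals.

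In Clec16a KO islets Wipi1 and Atg9b were higher and the V1 subunit Atp6v1d was lower on both diets. On RFD 3 of the 47 members tested were called (2 higher, 1 lower), where 7.52% of all genes were called. On HFD 6 of 47 were called (2 higher, 4 lower), with 9.57% of all genes called. The median over the 16 pump subunits tested was -0.18 on RFD and -0.24 on HFD, with all genes at 0.00. The direction of that pump median was the same on library totals, at -0.15 and -0.13. The beta cell marker sum was lower in the KO libraries on HFD, at 138661 to 250337 CPM against 233490 to 339931, and 196865 to 230099 against 211093 to 349010 on RFD. The endothelial marker sum was higher, at 395 to 699 CPM against 342 to 447 on HFD and 600 to 730 against 361 to 400 on RFD, and so was the fibroblast sum, at 77 to 129 against 47 to 83 and 69 to 120 against 51 to 64. All 8 beta cell, 7 endothelial and 9 fibroblast markers were detected. The part of these shifts in the member changes was not tested.

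Wipi1, a reader of phosphatidylinositol 3-phosphate on the forming autophagosome, had 80.96, 153.9, 89.71 and 81.14 CPM in the 4 KO libraries on RFD and 33.06, 55.45, 43.92 and 41.3 in the 4 controls. On HFD it had 113.4, 126.5, 159.5, 78.35 and 100.5 CPM in the KO libraries, against 38.93 to 63.83 with a median of 47.9 in the 6 controls. Every KO library lay above every control on its diet. By edgeR the log2 fold change on RFD was 1.22 ± 0.22 (SE, adjusted p = 0.00438), and on HFD it was 1.23 ± 0.19 (adjusted p = 0.000656). The difference between the diets in this change was 0.01 ± 0.29 on the log2 scale (adjusted p = 1). Within sequencing lanes 7 and 8, taken from the deposited library names, the RFD log2 ratios of means came to 0.92 and 1.85 and the HFD ratios to 1.19 and 1.24. The RFD ratio in lane 8 rests on 1 KO library, replicate 2 at 153.9 CPM, which is the highest of its group. Both calls held when any single library was left out. Wipi1 made up 65.7 to 79.5% of the summed TPM of Wipi1 and Wipi2 in KO against 43.3 to 54.0% in control libraries on RFD, and 63.9 to 79.7% against 47.9 to 61.7% on HFD. Wipi2 itself was not called on either diet.

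Atg9b, the less widely expressed of the 2 Atg9 scramblases, was a low transcript. Its KO libraries had 0.572, 1.36, 0.991 and 1.24 CPM on RFD against 0.230, 0.401, 0.397 and 0.330 in controls. On HFD the KO libraries had 1.75, 1.47, 1.54, 0.314 and 1.09 CPM against 0.128 to 0.357 with a median of 0.146 in controls. All KO libraries exceeded the controls on RFD, and on HFD KO replicate 4 fell inside the control range. The log2 fold change was 1.61 ± 0.45 (adjusted p = 0.0328) on RFD and 2.74 ± 0.40 (adjusted p = 0.000489) on HFD, with an interaction of 1.13 ± 0.59 (adjusted p = 1). The RFD call was lost in 6 of 8 fits that each left out 1 library, and the HFD call in 0 of 11. Exons of Atg9b (chr5:24384181-24392143, minus strand) share 294 bases with Nos3 on the opposite strand, 7.45% of the Atg9b exon bases, and whether counting used strand is not given in the sources used here. Nos3, the endothelial nitric oxide synthase, averaged 10.9 CPM in KO and 6.71 in control islets on RFD (log2 fold change 0.69 ± 0.14, adjusted p = 0.00723) and 9.46 against 7.43 on HFD (0.35 ± 0.12, adjusted p = 0.0707). The part of Nos3 reads in the Atg9b counts was not tested.

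**Figure D3:**
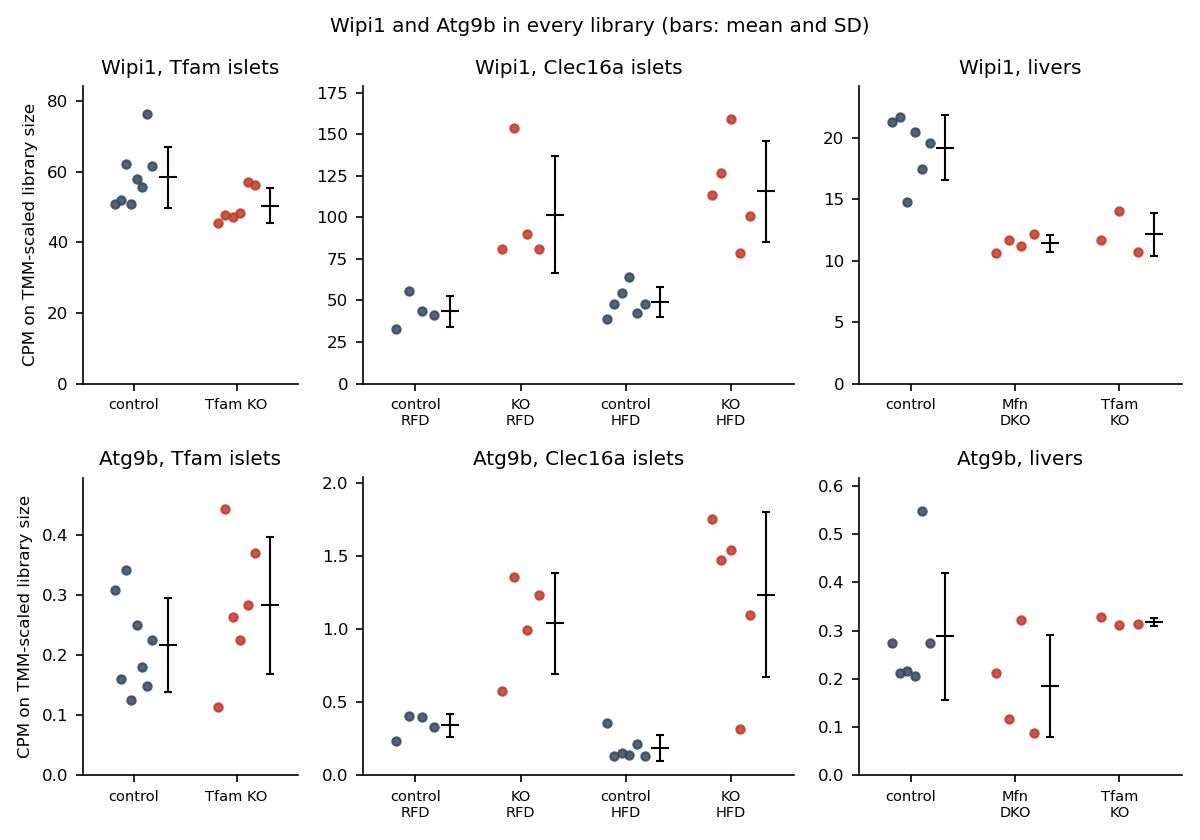
CPM on TMM-scaled library sizes of Wipi1 (top) and Atg9b (bottom) in every library, by experiment (Tfam islets left, Clec16a islets middle, livers right), with mean and SD beside the points. Wipi1 is above all controls in the Clec16a KO islets on both diets and below all controls in both groups of KO livers; in Tfam KO islets it overlaps the controls, and its lower mean there goes with a log2 change of 0.00 when library totals are used.

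The genes that fell in Clec16a KO islets were mostly V1 subunits. Atp6v1d encodes the central shaft of the V1 motor. It had 77.3, 81.26, 89.73 and 88.83 CPM in KO islets on RFD against 116.6, 116.3, 105.4 and 106.8 in controls. On HFD it had 87.47, 83.19, 81.49, 106.9 and 93.19 CPM against 113.1 to 136.2 (median 133) in controls, with no overlap on either diet. The log2 fold change was -0.40 ± 0.10 (adjusted p = 0.0159) on RFD and -0.49 ± 0.08 (adjusted p = 0.00129) on HFD, and both held with any library left out and on library totals.

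Atp6v1e1 and Atp6v1c1, subunits of the peripheral stalk, were called lower on HFD, at 145 against 195 CPM (-0.43 ± 0.12, adjusted p = 0.0286) and 103 against 127 CPM (-0.30 ± 0.08, adjusted p = 0.0283). KO replicate 4 on HFD lay within the control range for both, and each call was lost in 6 of 11 fits with 1 library left out (adjusted p up to 0.0909 and 0.0893). Pik3c3, the lipid kinase that makes phosphatidylinositol 3-phosphate, was also lower on HFD: 32.89, 27.84, 26.55, 30.59 and 32.14 CPM in KO libraries against 34.51 to 42.71 (median 38.5) in controls, without overlap (-0.37 ± 0.09, adjusted p = 0.0129). On library totals Pik3c3, Atp6v1e1 and Atp6v1c1 kept their direction but were no longer called, with adjusted p of 0.0905, 0.0819 and 0.189. Leaving out KO replicate 4 on HFD raised the number of members called from 6 to 11.

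Diet itself was not linked to a called member. HFD against RFD gave 0 calls among members in control islets, where 0.0406% of genes were called, and 0 in KO islets, where 0.0116% were called. The test of whether the KO change differed between diets also gave 0 members, with 0% of genes called. At an unadjusted p under 0.05 these comparisons had 2, 0 and 0 members, and DESeq2 called 0 in each. Over all 17254 genes, 973, 946 and 406 had an unadjusted p under 0.05, and DESeq2 called 53, 41 and 20.

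In Tfam KO islets 11 of 48 members tested were called, 7 higher and 4 lower, where 20.9% of all genes were called. All 11 lay within 0.68 of 0 on the log2 scale. The beta cell marker sum was 105367 to 141082 CPM in KO libraries against 188069 to 294668 in controls, without overlap, and its part in the member changes was not tested. On library totals 28 members were called, 27 of them higher, so the number and balance of calls here depend on the scaling. On that scale 6208 of all 19752 genes were higher and 617 lower. The test of a difference between the sexes gave 0 members (0% of genes called), with 1 at an unadjusted p under 0.05 and 0 by DESeq2. Over all 19752 genes, 1230 had an unadjusted p under 0.05 and DESeq2 called 34.

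Atp6v0e2, the main form of subunit e in islets, had the smallest adjusted p. Its KO libraries had 182.7, 166.2, 188.4 and 176.3 CPM in females and 185 and 199.2 in males, against 122 to 151.2 (median 132) in the 8 controls, with no overlap. The log2 fold change was 0.43 ± 0.06 (adjusted p = 0.000151). Its share of subunit e in TPM was 74.8% in controls and 81.8 ± 1.47% (n = 6) in KO islets, and Atp6v0e was not called. Atg4a, a protease that trims ATG8 proteins, was 14.12 to 17.49 CPM (median 16.4) in KO islets and 11.5 to 14.07 (median 12.7) in controls, again without overlap (0.35 ± 0.06, adjusted p = 0.000735).

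Gabarapl1 and Gabarapl2 moved in opposite directions. Gabarapl1 rose from 187 to 227 CPM (0.28 ± 0.07, adjusted p = 0.00688) and Gabarapl2 fell from 104 to 85.8 CPM (-0.29 ± 0.07, adjusted p = 0.00577). On library totals the Gabarapl1 call held and Gabarapl2, at -0.07, was not called. Gabarapl1 made up 32.3 ± 1.78% of the summed GABARAP TPM in controls and 39.7 ± 1.503% in KO islets.

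Atg14, the subunit that directs the lipid kinase to autophagy, rose from 16.6 to 21.1 CPM (0.33 ± 0.08, adjusted p = 0.00934), and Atg5, part of the ligase for ATG8 proteins, from 35.3 to 40.0 (0.18 ± 0.05, adjusted p = 0.017). Ulk1 had 46.43 to 59.67 CPM in controls (median 53.9) and 52.45 to 68.71 in KO islets (median 66.6), overlapping (0.24 ± 0.07, adjusted p = 0.0213). Atg101 was 17.9 against 15.2 CPM (0.23 ± 0.07, adjusted p = 0.033). The Atg101 call was lost in 9 of 14 fits with 1 library left out, and the Ulk1 call in 2, without female or male KO replicate 1. Atp6v1g2, the neuronal form of stalk subunit G, fell from 4.55 to 2.83 CPM (-0.68 ± 0.15, adjusted p = 0.0042). Exons of Atp6v1g2 share 144 bases with Nfkbil1 on the opposite strand, and Nfkbil1 was not called here (0.20 ± 0.10, adjusted p = 0.163).

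Wipi1 in Tfam KO islets was 45.51 to 57.03 CPM (median 47.9) against 50.67 to 76.41 (median 56.8) in controls. The groups overlapped, and the log2 fold change was -0.21 ± 0.07 (adjusted p = 0.0468). The call was lost in 11 of 14 fits with 1 library left out, and on library totals the log2 fold change was 0.00.

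In livers both KO groups were compared with the same 6 controls, so their agreement is not independent. In Mfn DKO livers 7 of 49 members were called, where 9.87% of all genes were called. Of the 31 autophagy members 6 were called lower and 0 higher, where 4.64% of all genes were called lower, with a median log2 fold change of -0.27 against 0.02 for all genes. On library totals 1 remained called lower, where 356 of 17024 genes were lower, and the autophagy median was -0.07. Atp6v1b2 was the member called higher. The macrophage marker sum was 787 to 1591 CPM in Mfn DKO against 604 to 1118 in control livers and the fibroblast sum 306 to 364 against 226 to 306, while the hepatocyte sum was 71389 to 92453 against 84167 to 129856. All 12 macrophage, 9 fibroblast and 8 hepatocyte markers were detected in both groups. Their part in these changes was not tested.

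Wipi1 had 10.59, 11.65, 11.15 and 12.19 CPM in the Mfn DKO livers against 21.26, 21.71, 14.78, 20.44, 17.44 and 19.55 in the 6 controls. The groups did not overlap, the log2 fold change was -0.75 ± 0.12 (adjusted p = 0.00344), and the call held in each fit with 1 library left out and on library totals (-0.56, adjusted p = 0.0421). The ATG8 gene Map1lc3a was 28.06, 25.55, 27.25 and 30.21 CPM against 30.95 to 43.08 (median 39.8) in controls (-0.46 ± 0.10, adjusted p = 0.0144). Atg7, the E1-like enzyme of the conjugation machinery, was 37.8 against 51.1 CPM (-0.44 ± 0.11, adjusted p = 0.0245). Becn1 was 48.7 against 60.8 CPM (-0.32 ± 0.09, adjusted p = 0.038). The scaffold Atg16l1 was 36.2 against 46.7 CPM (-0.37 ± 0.10, adjusted p = 0.0385), with overlapping groups. Wipi2 was 83.7 against 106 CPM (-0.35 ± 0.10, adjusted p = 0.0488).

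The calls other than Wipi1 were less steady. Leaving out 1 library ended the Wipi2 call in 9 of 10 fits, Becn1 and Atg16l1 in 8, Atg7 in 5 and Map1lc3a in 1 (without Mfn DKO replicate 2, adjusted p = 0.0536). Exons of Becn1 share 3104 bases with Cntd1 on the opposite strand, and Cntd1 was not called (0.06 ± 0.64, adjusted p = 0.966). Atp6v1b2, the widely expressed subunit B of the V1 head, was 74.26, 86.36, 74.64 and 86.05 CPM in Mfn DKO against 48.14 to 57.49 (median 53.6) in controls (0.60 ± 0.18, adjusted p = 0.0493). The groups were apart, and yet the call was lost in 10 of 10 fits with 1 library left out.

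In Tfam KO livers 9 of 18 pump subunits were called higher and 3 of 4 genes of the initiation complex lower on the TMM scale. Of 49 members tested, 17 were called, where 29.3% of all genes were called. Of the other 9 pump subunits 1 was lower and 8 were not called, where 18.1% of all genes were higher, and the median over the 18 log2 fold change was 0.47 against 0.03 for all genes. Of the 31 autophagy members 0 were higher and 7 lower, where 11.3% of all genes were lower, with a median of -0.28 that turned to 0.16 on library totals. On library totals 14 pump subunits were higher (median 0.94), and 7 autophagy members were higher and 1 lower, while the median of all genes was 0.46. Of all 17024 genes 7250 were higher and 904 lower on library totals. On either scale the pump median was above and the autophagy median below the median of all genes. DESeq2 called 11 autophagy members lower, where it called 5884 of all genes in either direction. With replicate number as a block in the edgeR fit, 0 pump subunits were called higher and 2 autophagy members lower. That block lowered calls over all genes from 4992 to 395.

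The 3 Tfam KO livers were unlike each other. The hepatocyte marker sum ranged from 22029 CPM in replicate 2 to 88729, against 84167 to 129856 in controls, and all 8 markers were detected. The macrophage sum was 438 to 1090 CPM against 604 to 1118, and the fibroblast sum 229 to 295 against 226 to 306. Without replicate 2 the pump subunits called higher numbered 4, and without replicate 3 they numbered 14. The part of the hepatocyte shift in the member changes was not tested.

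Ulk1 (chr5:110784488-110810097, minus strand), the kinase that starts autophagosome formation, had 56.25, 34.77 and 59.66 CPM in Tfam KO livers, 80.69 to 94.65 (median 89.0) in controls, and 97.49, 88.41, 104.9 and 103.0 in Mfn DKO livers. All 3 Tfam KO livers lay below all other livers. The log2 fold change against control was -0.82 ± 0.15 (adjusted p = 0.00289), and it was -0.43 (adjusted p = 0.00811) on library totals. Ulk1 was also the 1 member of 49 called between Tfam KO and Mfn DKO livers (-0.97 ± 0.16, adjusted p = 0.0221), a comparison in which 0.294% of genes were called. At an unadjusted p under 0.05 that comparison had 13 of the 49 members and 3480 of all 17024 genes. DESeq2 called 3 members and 1065 of all genes. The Ulk1 call was lost in 3 of 7 fits with 1 library left out.

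Atg13, the adaptor of the kinase, had 45.12, 33.6 and 35.53 CPM in Tfam KO against 51.05 to 68.84 (median 59.6) in control livers (-0.65 ± 0.13, adjusted p = 0.004). Its partner Atg101 had 29.18, 29.5 and 33.32 CPM against 35.13 to 51.93, median 45.2 (-0.53 ± 0.12, adjusted p = 0.00707). Both groups were apart for both genes. Ulk2, the second kinase, had 65.09, 46.52 and 70.95 CPM against 65.97 to 104 (median 83.7) and was not called (-0.47 ± 0.20, adjusted p = 0.0876). Over the 4 genes the median log2 fold change was -0.59, and 3 of 4 were called. On library totals Ulk1 remained called, while Atg13 and Atg101 were -0.23 and -0.11 with adjusted p of 0.157 and 0.497.

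**Figure D4:**
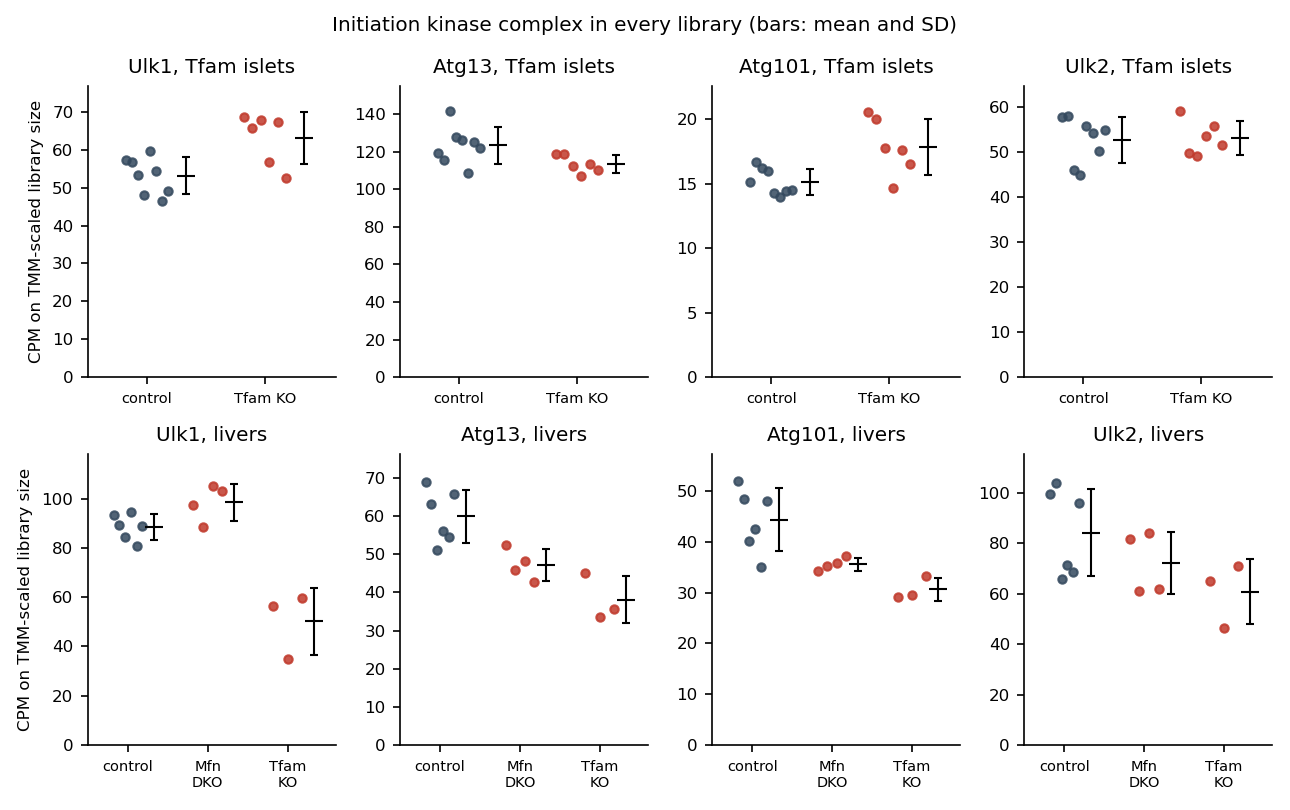
CPM on TMM-scaled library sizes of the initiation kinase genes in every Tfam islet library (top) and liver (bottom), with mean and SD. Ulk1, Atg13 and Atg101 are below all controls in Tfam KO livers, of which Ulk1 alone stays called on library totals, while Ulk1 and Atg101 overlap the controls in Tfam KO islets with higher means.

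Besides the initiation complex and Tfeb, which is given below, Wipi1, Atg2a and Atg3 were called lower in Tfam KO livers. Wipi1 had 11.65, 14.04 and 10.69 CPM against 14.78 to 21.71 in controls (-0.66 ± 0.14, adjusted p = 0.00455). Beside it, the Mfn DKO value against the same controls was -0.75. Atg2a, a lipid transfer protein, was 35.2 against 48.9 CPM (-0.47 ± 0.12, adjusted p = 0.0133). Atg3, the E2-like enzyme that places ATG8 proteins on lipid, had 91.21, 50.17 and 128.6 CPM against 132 to 163.4, median 141 (-0.67 ± 0.21, adjusted p = 0.0331). No Tfam KO liver reached the control range for these 3 genes. On library totals their log2 fold changes were -0.21, -0.02 and -0.31, with adjusted p of 0.35, 0.921 and 0.124. The Atg3 call was lost in 5 of 9 fits with 1 library left out, where its log2 fold change ran from -1.04 (without Tfam KO replicate 3) to -0.38 (without replicate 2).

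The pump subunits that rose came from both sectors. Atp6v1b2 had 131.2, 156 and 66.9 CPM in Tfam KO livers against 48.14 to 57.49 (median 53.6) in controls (1.15 ± 0.19, adjusted p = 0.00174). Atp6v1c1 had 86.34, 88.3 and 55.36 CPM against 37.16 to 53.03, median 45.0 (0.78 ± 0.15, adjusted p = 0.00313). Atp6v0e, the main form of subunit e in livers, had 85.54, 130.6 and 56.8 CPM against 40.2 to 51.65, median 45.5 (0.99 ± 0.19, adjusted p = 0.00318). All KO livers were above all controls for these 3 genes, with replicate 3 the lowest each time.

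Atp6v1g1, the common stalk subunit G, had 95.86, 143.7 and 84.59 CPM against 57.31 to 83.46, median 62.7 (0.73 ± 0.16, adjusted p = 0.00718), with the lowest KO liver just above the highest control. The calls of Atp6v1b2, Atp6v1c1, Atp6v0e and Atp6v1g1 held in every fit with 1 library left out and on library totals. Atp6v1a, the catalytic subunit A, had 92.95, 200.4 and 64.4 CPM against 56.72 to 71.96, median 61.0 (0.93 ± 0.25, adjusted p = 0.0147), so replicate 3 lay within the control range. Atp6v1f rose from 64.4 to 89.2 CPM (0.47 ± 0.13, adjusted p = 0.0153). Atp6v0b, a proteolipid of the rotor ring, was 97.9 against 74.4 CPM (0.40 ± 0.13, adjusted p = 0.0377), with overlapping groups. Its call was lost in 6 of 9 fits with 1 library left out, where the log2 fold change ran from 0.26 to 0.50.

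Replicate 2 carried part of this group. Atp6v0e2 had 0.852, 8.45 and 1.43 CPM in Tfam KO livers against 0.568 to 1.27 in controls (1.91 ± 0.54, adjusted p = 0.0205). Only replicate 2 was far above the controls. With the level of Xist, a transcript of female cells, as a covariate the Atp6v0e2 call was lost. Without replicate 2, 5 of the 9 subunits called higher were not called: Atp6v0e2, Atp6v1a and Atp6v1f, at 0.26, 0.34 and 0.31 with adjusted p of 0.678, 0.119 and 0.0984, Atp6v0a1, at 0.24 with adjusted p of 0.319, and Atp6v0b. Atp6v0a1, the remaining subunit called higher (57.4 against 41.7 CPM, 0.46 ± 0.16, adjusted p = 0.0468), falls outside the rule for named genes and was chosen after its values were seen; its call was lost in 8 of 9 fits with 1 library left out. The subunit called lower was Atp6v1g2, at 1.23, 1.43 and 1.52 CPM against 1.72 to 2.90 (-0.74 ± 0.24, adjusted p = 0.037), which was not called on library totals or in 6 of 9 fits with 1 library left out. Nfkbil1, which overlaps it on the opposite strand, was higher (0.55 ± 0.14, adjusted p = 0.0104).

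**Figure D5:**
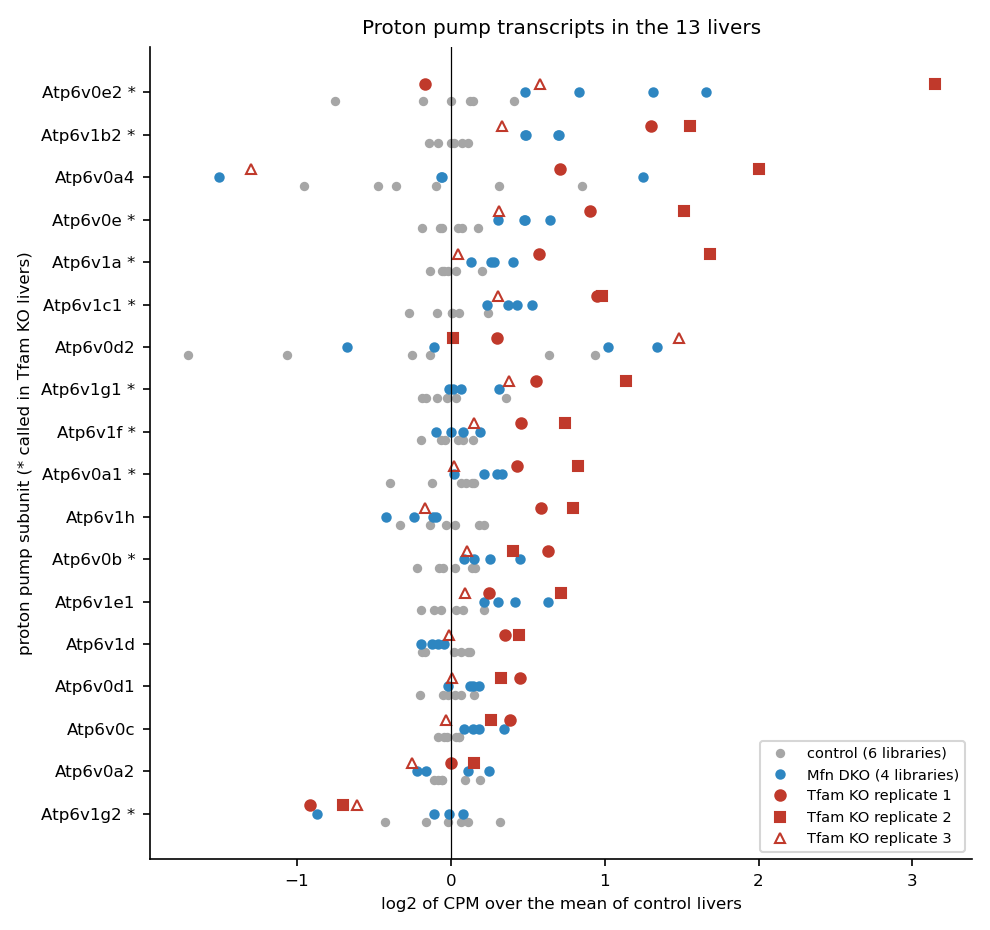
Log2 of CPM over the mean of control livers for each of the 18 tested pump subunits in the 13 livers, with control, Mfn DKO and the 3 Tfam KO replicates marked and an asterisk on the 10 subunits called in Tfam KO livers. Tfam KO replicates 1 and 2 lie right of the controls for most subunits, replicate 3 lies closer to them, and Atp6v1g2 lies left (not called on library totals).

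The motif genes shown above did not move as 1 group in Tfam KO livers. Atp6v0b, Atp6v0e and Atp6v1a were higher, Atg3 was lower, and Atg5, Atg7, Atg14 and Atp6v0d1 were not called. A match of these letters is a description of the sequence and not of binding.

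Of the transcription factor genes, Tfeb was called lower in both Tfam KO tissues on the TMM scale and Tfe3 was not called. Tfeb (chr17:47737030-47792419) was 5.11 to 9.45 CPM (median 8.04) in Tfam control islets and 4.29 to 6.57 (median 5.63) in Tfam KO islets (-0.44 ± 0.13, adjusted p = 0.019). In livers it was 11.39, 6.44 and 10.46 CPM in Tfam KO against 11.41 to 14.75 (median 13.2) in controls (-0.49 ± 0.17, adjusted p = 0.0458), without overlap. The liver call was lost in 6 of 9 fits with 1 library left out, where the log2 fold change ran from -0.65 to -0.27 and the adjusted p reached 0.207. On library totals neither Tfeb call remained, with adjusted p of 0.186 and 0.625. Tfe3 (chrX:7762560-7775202) was called in none of the 5 comparisons with control by edgeR, with log2 fold changes of 0.01 in Tfam KO islets, 0.10 on RFD and 0.03 on HFD in Clec16a KO islets, 0.24 in Mfn DKO livers and 0.06 in Tfam KO livers. Its adjusted p values were 0.939, 0.641, 0.884, 0.154 and 0.736. These proteins are known to be controlled mainly by their place in the cell, which RNA does not measure.

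Lists of other genes of the pathway, which are not members, were counted in the same fits. Of 26 other genes of autophagy and lysosome fusion, 5 were higher and 4 lower in Tfam KO livers (16 and 1 on library totals). Their median log2 fold change was -0.03. In Tfam KO livers 11 of 27 lysosomal hydrolases were higher and 1 lower (22 and 1 on library totals), where 18.1% of all genes were higher and 11.3% lower on TMM. Likewise 5 of 13 lysosomal membrane proteins were higher and 1 lower (9 and 0). On library totals 7250 of all 17024 genes were higher and 904 lower. Ctsl, the protease cathepsin L, was 3412 against 557 CPM (2.61 ± 0.28, adjusted p = 0.00019). Cd63, a membrane protein of late endosomes, was 253 against 8.15 CPM (4.95 ± 0.53, adjusted p = 0.000195). In Mfn DKO livers 6 of 27 hydrolases were higher and 0 lower, where 5.23% of all genes were higher and 4.64% lower, with Ctsl at 2854 CPM (2.36 ± 0.26, adjusted p = 0.000388), against the same controls. Of 12 accessory and assembly factors of the pump, 5 were higher and 1 lower in Tfam KO livers, among them Atp6ap2 (0.72 ± 0.15, adjusted p = 0.00451) and Atp6ap1 (0.53 ± 0.12, adjusted p = 0.00694), both parts of the assembled pump.

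The autophagy receptors, which bring cargo to the ATG8 proteins, moved both ways. In Tfam KO livers 2 of 15 were higher and 4 lower, beside the 18.1% and 11.3% of all genes on TMM. On library totals 8 were higher and 2 lower, beside 7250 and 904 of all 17024 genes. The receptor Sqstm1 was 787 against 310 CPM there (1.34 ± 0.25, adjusted p = 0.00275), and in Mfn DKO livers it was not called (0.43 ± 0.23, adjusted p = 0.24). In Tfam KO islets 5 of 15 receptors were higher and 2 lower, where 11.6% of all genes were higher and 9.29% lower on TMM. On library totals 9 receptors were higher and 0 lower, where 6208 of 19752 genes were higher and 617 lower. Sqstm1 was 595 against 395 CPM (0.59 ± 0.08, adjusted p = 3.8e-05), and Optn rose by 0.80 ± 0.08 on the log2 scale (adjusted p = 2.48e-06). In Clec16a KO islets Optn was lower, at -0.73 (adjusted p = 0.0159) on RFD and -0.52 (adjusted p = 0.0332) on HFD.

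Of 28 genes of nutrient sensing, 8 were higher and 2 lower in Tfam KO livers (20 and 0 on library totals). Of all genes there 18.1% were higher and 11.3% lower on TMM, and 7250 and 904 of 17024 on library totals. In Tfam KO islets 7 of 27 were higher and 2 lower (16 and 0). Of all genes there 11.6% were higher and 9.29% lower on TMM, and 6208 and 617 of 19752 on library totals. Among the nutrient sensing genes Rragd, a small GTPase that recruits mTORC1 and is a known Tfeb target, was called in both tissues. It was 162 against 88.6 CPM in Tfam KO islets (0.87 ± 0.07, adjusted p = 4.98e-07) and 57.0 against 2.83 CPM in Tfam KO livers (4.33 ± 0.56, adjusted p = 0.000613). In Clec16a KO islets it was lower, at -0.76 ± 0.20 (adjusted p = 0.0252) on RFD and -0.63 (adjusted p = 0.0258) on HFD. Lysosomal membrane genes in Clec16a KO islets numbered 0 higher and 2 lower of 13 on RFD and 0 higher and 5 lower on HFD (0 and 1, and 0 and 0, on library totals). On TMM 3.54% of all genes were lower on RFD and 3.95% on HFD. On library totals 483 of 17254 genes were lower on RFD and 352 on HFD. Clcn7, the chloride-proton exchanger of the lysosome, was lower on both diets, at -0.40 (adjusted p = 0.00981) and -0.31 (adjusted p = 0.0123).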

How the data were processed

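RNA was sequenced as 151 bp paired-end reads, per the labels' protocols. The submitters' processing notes name the build GRCm38, STAR 2.6.1b, RSEM 1.3.1, featureCounts and DESeq2, with no role or order; the annotation and strand setting are not given in the sources used here. Per the file headers, the authors deposited raw counts, TPM and CPM for each gene; the deposited CPM equals the count over the library total and was not used. All 54 member identifiers were found in GENCODE M21, which gave coordinates and overlapping exons.

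Each experiment was fitted alone in edgeR 4.0.16 (R 4.3.3): TMM scaling, filterByExpr on group, quasi-likelihood F-test, and p-values adjusted by Benjamini and Hochberg's method across every gene in the fit. The Tfam islet fit had sex as a covariate; the others used group means over all groups of the experiment. The standard error is the log2 fold change over the square root of F. DESeq2 1.42.0 was the alternative. Levels were computed as CPM with TMM-scaled libraries, so values within an experiment are comparable and values between experiments are not; TPM levels of islets and livers come from separate tables.

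The members and lists were chosen with earlier results of these data known. Named with values were the called members, at most the 8 of smallest adjusted p in each direction per comparison, Tfeb and Tfe3, members called in opposite directions or in 3 or more comparisons, members at or under 3 counts throughout, and the extremes by TPM; from the other pathway lists, at most 2 genes per direction, list and comparison, with Sqstm1, Optn and Rragd followed across comparisons after their values were seen. Alternatives were DESeq2's test and size factors, library totals (added after seeing the data), no filter, lane, sex or exocrine covariates, the compared groups alone, single libraries left out and a replicate block. The fits were tested on simulated data with 50 genes changed at each of 1.5, 2, 4 and 8-fold and no other gene changed. The fits of the data called far more genes, 4992 in Tfam KO livers and 1681 in Mfn DKO livers. With fewer changed genes the adjusted p is harder to pass, so the simulated shares are not the recovery in the data. In Tfam KO livers 8% of 1.5-fold and 40% of 2-fold changes were called, and in Mfn DKO livers 10% and 62%. The shares were 78% and 90% in Tfam KO islets, 46% and 78% on RFD, and 52% and 78% on HFD. A member not called in livers may still have changed, and numbers of calls are not comparable between experiments.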

Additional observations from a re-analysis of the deposited data

Results flagged for a closer look

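Each group of 4 to 10 libraries was checked, for each called member, for a single library far from the others of its group; 3 of 70 such groups had one, and chance gives about 1 in 20. Wipi1 in Tfam control islets was 76.4 CPM in male replicate 2, where the next highest control was 62.2, a gap of 0.552 of the range of the 8 libraries. Wipi1 in Clec16a KO islets on RFD was 153.9 CPM in replicate 2, where the next highest was 89.7, a gap of 0.880 of the range of the 4 libraries. Atp6v1g1 in control livers was 83.5 CPM in replicate 3, where the next highest was 66.7, a gap of 0.640 of the range of the 6 libraries.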

How the results depend on the processing

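On library totals, chosen after seeing the data, the members called numbered 28 in Tfam KO islets (11 on TMM) and 5 between Tfam KO and Mfn DKO livers (1 on TMM); pump subunits called higher in Tfam KO livers numbered 14 (9 on TMM), and autophagy members called lower numbered 1 in Tfam KO livers (7 on TMM) and 1 in Mfn DKO livers (6 on TMM). Wipi1 in Tfam KO islets reversed from -0.21 to 8.28e-05 (adjusted p = 0.999). All genes called higher and lower in Tfam KO livers numbered 7250 and 904 on totals against 3073 and 1919 on TMM, in Tfam KO islets 6208 and 617 against 2285 and 1834, in Mfn DKO livers 1653 and 356 against 891 and 790, on HFD 1775 and 352 against 970 and 682, and between the KO livers 1140 and 86 against 18 and 32. Size factors of DESeq2 changed the sign of 0 calls. The cause of these differences was not tested.

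Lane, exocrine and other covariates left each of these counts within 1.5 times of the reported one. Females alone gave 6 members in Tfam KO islets and males alone 3, with fewer libraries in each fit. Calls over all genes were 2142 and 1764 in these fits, against 4119 as reported. Without a filter on low counts Mfn DKO livers had 2 members, both autophagy members called lower (2). Fitted without the Tfam KO livers they had 15. Calls over all genes moved from 1681 to 1148 without the filter and to 4338 without the Tfam KO livers. The Wald test of DESeq2 called 11 autophagy members lower in Tfam KO livers and 3 members between the KO livers, where a fit of these groups alone called 0. Over all genes the Wald test called 5884 in Tfam KO livers and 1065 between the KO livers, and the fit of these groups alone called 7. Same-numbered libraries of different groups had median correlations of 0.148 in Tfam islets, -0.0313 in Clec16a islets and 0.102 in livers. Libraries of unlike number had -0.0404, -0.0187 and -0.0548. Of the same-numbered pairs 10 of 16, 3 of 25 and 5 of 10 were over 0.1. These values do not settle whether the numbers pair libraries in the Tfam islets and livers, and the reported fits had no block. With a replicate block, members called numbered 12 in Tfam KO islets, 2 on RFD, 4 on HFD, 1 in Mfn DKO livers, 2 in Tfam KO livers and 0 between the KO livers; pump subunits called higher numbered 0, and autophagy members called lower 2 in Tfam KO and 1 in Mfn DKO livers. The block lowered calls over all genes from 4992 to 395 in Tfam KO livers, from 1681 to 169 in Mfn DKO livers and from 50 to 6 between the KO livers.

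With single libraries left out, members called ranged from 8 to 15 in Tfam KO islets, 2 to 3 on RFD, 4 to 11 on HFD (11 without KO replicate 4), 1 to 6 in Mfn DKO livers, 9 to 25 in Tfam KO livers (9 without replicate 2, 25 without replicate 3) and 0 to 10 between the KO livers (0 without Mfn DKO replicate 1, 3 or 4, 10 without Tfam KO replicate 3). Pump subunits called higher ranged from 4 to 14 (without Tfam KO replicates 2 and 3), and autophagy members called lower from 5 to 10 in Tfam KO livers and 1 to 6 in Mfn DKO livers. The Mfn DKO count fell below 5 without control replicate 1, 2, 3 or 6 or without any 1 of the Mfn DKO livers. The sex and diet tests stayed at 0.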
